A study of Homo sapiens and Mus musculus with 12 samples.

Results

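The Sprouty and SPRED genes encode feedback inhibitors of receptor tyrosine kinase signalling, and their transcripts were followed in 2 breast cancer lines after ponatinib, a multi-kinase inhibitor. The members were chosen by symbol: SPRY1, SPRY2, SPRY4, SPRED1, SPRED2 and SPRED3 among 63677 human gene identifiers, and Spry1, Spry2, Spry4, Spred1, Spred2 and Spred3 among 47729 mouse identifiers, so that 12 genes of 111406 were taken. Bulk RNA sequencing was done on MDA-MB-231, a human triple-negative breast cancer line, and on 4T1, a mouse mammary carcinoma line. Both are labelled wild type and described as breast epithelial cells. Each line was kept for 24 h with 1 µM ponatinib or with DMSO, the solvent, and each of the 4 groups held 3 libraries, 12 in all. A single dose and a single time were sampled. Nothing in the labels says that the libraries of a group came from separate cultures, so the p-values measure only the spread between these libraries, which may be technical.

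Sprouty and SPRED proteins share a cysteine-rich C-terminal domain that brings them to the membrane, where they act as brakes on the path from activated receptors through RAS and RAF to the kinase ERK. Sprouty proteins bind adaptors and ubiquitin ligases such as GRB2 and CBL and interfere with the activation of RAS and RAF, while SPRED proteins carry neurofibromin (NF1), which switches RAS off, to the membrane. ERK signalling induces several of these genes, above all SPRY2 and SPRY4, so that the pathway makes its own inhibitors, and their transcripts are widely used as readouts of pathway activity.

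The human libraries held 15012884 to 17301760 counts each and the mouse libraries 17800675 to 18951493. Levels are given as CPM, that is counts scaled to library size after trimmed mean of M values (TMM) normalization, and differences as log2 fold changes of ponatinib over DMSO with the 95% interval in brackets. A gene was called when edgeR's quasi-likelihood test gave it a Benjamini-Hochberg adjusted p below 0.05 over all genes tested, 14610 of them in the human line and 13286 in the mouse line. All 12 members passed the filter on low counts. The keratins KRT8, KRT18 and KRT19 were abundant in both lines, as was the mesenchymal marker VIM, while EPCAM was low, at 5.63 to 9.14 CPM in the human and 2.10 to 2.90 CPM in the mouse libraries. E-cadherin (CDH1) lay between 0 and 0.0631 CPM in MDA-MB-231 against 787 to 969 CPM in 4T1, and the leukocyte marker PTPRC did not exceed 0.222 CPM in any library. CDH2, another mesenchymal marker, reached at most 0.252 CPM in the human and 0.155 CPM in the mouse libraries. FN1, the last mesenchymal marker, read 109 to 225 CPM in MDA-MB-231 and 882 to 3693 CPM in 4T1. Cd68, also a leukocyte marker, read 1.12 to 2.44 CPM in 4T1, and CD68 reached at most 0.0663 CPM in MDA-MB-231. The leukocyte marker CD3E reached at most 0.0629 CPM in the human and 0 CPM in the mouse libraries. The endothelial markers PECAM1 and CDH5 did not exceed 0.492 CPM in any library. The fibroblast marker COL1A1 read 25.7 to 76.9 CPM in MDA-MB-231 and 2.79 to 8.46 CPM in 4T1. COL1A2 and DCN, also fibroblast markers, reached at most 0.110 and 0.0663 CPM in MDA-MB-231 and were at 0 CPM in 4T1. In bulk RNA, fewer cells with a transcript and less of it per cell cannot be told apart.

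Promoter sequence is shown for SPRY4, which fell furthest in MDA-MB-231, for SPRY1, which rose in both lines, and for SPRY2, whose response differed between the lines. The sequences were read 5′ to 3′ on the strand of the gene from hg38 or GRCm39, upstream of the start of the canonical transcript in GENCODE. The SPRY4 stretch (chr5:142325031-142325208, minus strand) lies between the canonical start of SPRY4 and the start of the antisense transcript SPRY4-AS1. It holds no annotated exon, but the annotated SPRY4 gene reaches further upstream, to 142326455, so the stretch lies within the span of that gene. The others are the 250 bases before the start, at chr4:123396545-123396794 on the plus strand for SPRY1, chr3:37693647-37693896 on the plus strand for Spry1, chr13:80341127-80341376 on the minus strand for SPRY2 and chr14:106134793-106135042 on the minus strand for Spry2. Capitals mark the matches found.
SPRY4 to SPRY4-AS1: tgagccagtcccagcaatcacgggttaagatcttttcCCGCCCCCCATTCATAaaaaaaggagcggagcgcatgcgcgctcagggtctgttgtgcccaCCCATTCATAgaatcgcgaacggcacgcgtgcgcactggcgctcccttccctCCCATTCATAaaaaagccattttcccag
SPRY1: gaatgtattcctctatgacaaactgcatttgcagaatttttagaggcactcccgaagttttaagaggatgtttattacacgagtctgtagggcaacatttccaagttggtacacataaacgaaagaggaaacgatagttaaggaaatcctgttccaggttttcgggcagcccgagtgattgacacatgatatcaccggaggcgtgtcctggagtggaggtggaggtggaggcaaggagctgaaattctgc
Spry1: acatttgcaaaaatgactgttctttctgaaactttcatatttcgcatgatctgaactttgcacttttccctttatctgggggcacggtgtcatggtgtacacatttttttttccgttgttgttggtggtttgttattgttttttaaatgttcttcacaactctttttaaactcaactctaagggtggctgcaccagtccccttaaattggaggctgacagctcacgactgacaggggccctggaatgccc
SPRY2: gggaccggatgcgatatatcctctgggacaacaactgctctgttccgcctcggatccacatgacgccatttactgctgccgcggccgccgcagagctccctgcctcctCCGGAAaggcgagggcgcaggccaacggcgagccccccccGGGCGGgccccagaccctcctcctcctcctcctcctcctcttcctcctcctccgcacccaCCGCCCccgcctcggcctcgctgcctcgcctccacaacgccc
Spry2: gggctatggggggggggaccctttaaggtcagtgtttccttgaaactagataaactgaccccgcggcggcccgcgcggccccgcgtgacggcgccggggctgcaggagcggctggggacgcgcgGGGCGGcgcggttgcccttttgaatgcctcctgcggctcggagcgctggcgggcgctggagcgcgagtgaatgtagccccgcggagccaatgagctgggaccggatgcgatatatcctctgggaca

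Both strands were searched for the ETS core CCGGAA, the AP-1 site TGANTCA, the GC box GGGCGG and the serum response factor's CArG box. The ETS core was found in the SPRY2 window, 142 bases before the start, beside GC boxes at 102 and 42 bases, while the Spry2 window held 1 GC box and neither SPRY1 nor Spry1 held any match. The mouse Spry4 window, which is not printed, held an ETS core at 85 bases and a GC box at 219. The windows of the SPRED genes held no ETS core. Of the same windows of all protein-coding genes, 19.4% in human and 12.4% in mouse held the ETS core, 4.73% and 6.17% the AP-1 site, 59.0% and 36.3% a GC box and 1.12% and 1.40% a CArG box. No printed match overlapped another. The SPRY4 stretch held a GC box and, as the longest run of letters found 3 times within it, CCCATTCATA, which begins 144, 89 and 37 bases before the SPRY4 start. Of 20044 human windows, 6 held these letters at all and 1, that of SPRY4, held them 3 times. In mouse 14 of 21770 windows held them, and that of Spry4 held them at 76 and 21 bases. The repeat was searched for after the sequence was seen, and a match of letters is a description of the window only. Between the species the longest identical run was 33 bases for the SPRY4 windows, at least 30 for SPRY2, where the ends of the windows cut it off, 21 for SPRED2 and 8 each for SPRY1, SPRED1 and SPRED3. The 30 shared bases of SPRY2 begin 250 bases before the human start and 30 before the mouse start, so these annotated starts do not correspond. The 33 shared bases of SPRY4 begin 233 bases before the human start and 165 before the mouse start. The SPRY4 windows are thus also offset, and their numbers of repeat copies cannot be compared between the species.

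In MDA-MB-231, ponatinib lowered SPRY4, SPRED1, SPRED2 and SPRED3 and raised SPRY1, and SPRY2 was not called. The 5 members called stand against 54.0% of all genes tested. The 4 members called lower compare with 26.8% of all genes, and the 1 called higher against 27.2%. In 4T1, Spry2, Spry4, Spred2 and Spred3 fell, Spry1 rose and Spred1 was not called, again 5 called, 4 of them lower and 1 higher, where 59.0% of all genes were called, 29.4% lower and 29.5% higher. The median log2 fold change over the 6 members was -0.95 in the human line, beside 0.02 for all genes, and -0.72 in the mouse line, beside -0.00014 for all genes. The groups did not overlap for 5 of 6 members in each line, where 60.4% of all human genes tested and 63.4% of the mouse genes did not overlap. The 4 members that were lower without overlap stand against 29.8% of the human and 30.8% of the mouse genes.

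**Figure D1:**
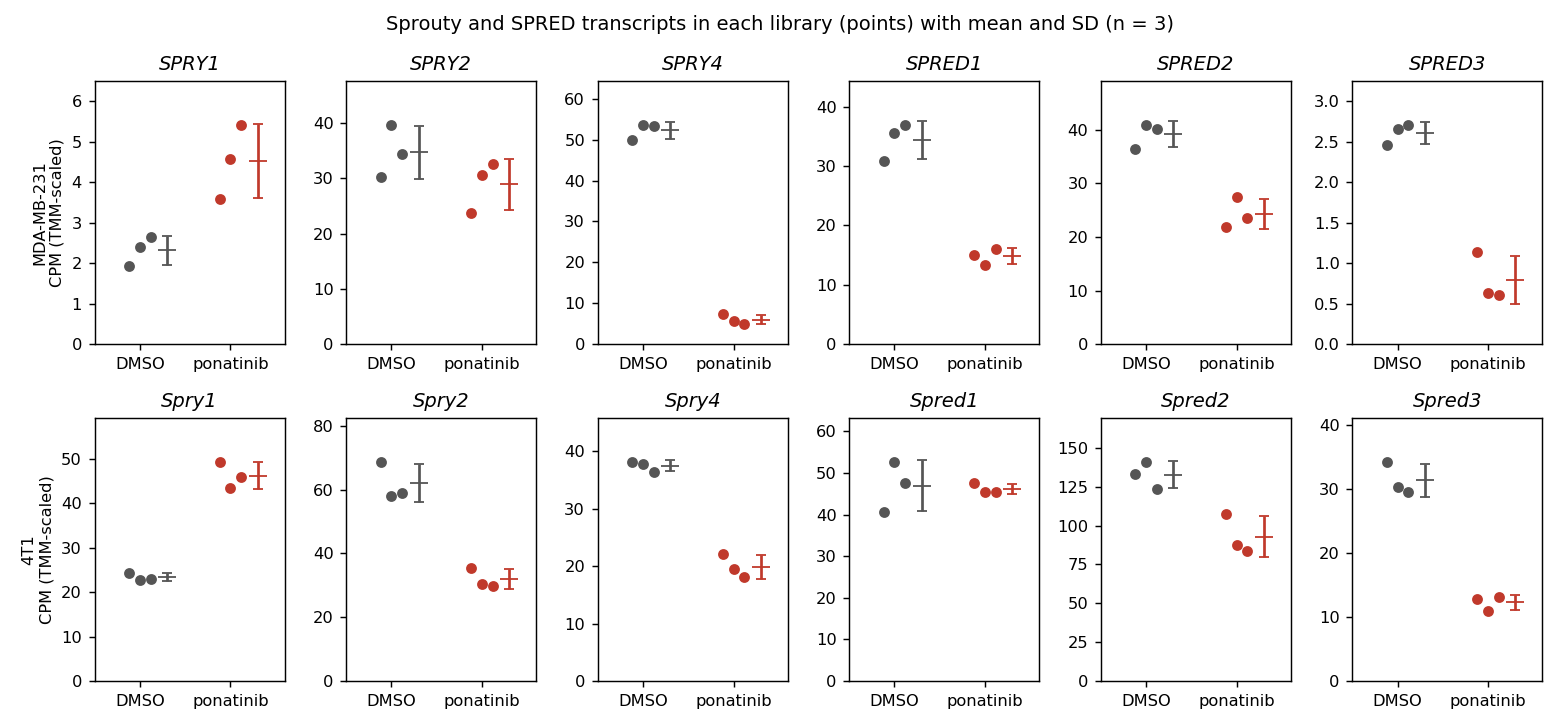
CPM (TMM-scaled, linear axes from 0) of the 6 members in MDA-MB-231 (upper row) and 4T1 (lower row); points are single libraries and the bars beside them the mean and SD of 3. SPRY4 went from a mean of 52.3 to 6.03 CPM in the human cells, Spry4 went from 37.5 to 19.8 CPM in the mouse cells, and SPRY1 was higher with ponatinib in both lines.

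SPRY4 (ENSG00000187678, hg38 chr5:142310427-142326455, minus strand), a Sprouty that blocks RAS activation downstream of growth factor receptors, changed most of the members in MDA-MB-231. Its level was 49.9, 53.6 and 53.3 CPM in the 3 DMSO libraries and 7.32, 5.73 and 5.04 CPM in the 3 ponatinib libraries. Every ponatinib library lay far below every DMSO library, and 11.5% of the DMSO level was left. The fall was 8.69-fold, a log2 fold change of -3.12 (-3.40 to -2.84), with an adjusted p of 9.45e-09 by edgeR, and 28 genes of 14610 had a lower value, SPRY4 being in place 29. In the mouse line, Spry4 (ENSMUSG00000024427, GRCm39 chr18:38719300-38736025, minus strand) read 38.2, 37.8 and 36.4 CPM with DMSO and 22.0, 19.4 and 18.1 CPM with ponatinib. Those groups did not overlap either, but 52.9% of the DMSO level was left. This gave a log2 fold change of -0.92 (-1.13 to -0.70, adjusted p = 2.62e-06, edgeR), in place 773 of 13286.

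The non-coding gene SPRY4-AS1 starts 188 bases from the canonical start of SPRY4 on the opposite strand (hg38, chr5:142325209-142672001, plus strand), with the stretch printed above lying between the starts. It had 23, 27 and 29 counts with DMSO, 1.70 ± 0.155 CPM (SD, n = 3), and 0 counts in each of the 3 ponatinib libraries. Set against a floor of 3 counts over the ponatinib group, it was at least 28.3-fold lower, and edgeR gave an adjusted p of 2.19e-05. The annotated exons of the pair do not overlap. Whether strand was used in the counting is not given in the sources used here. The mouse antisense gene at this locus was not analysed here.

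SPRY2 (ENSG00000136158, chr13:80335976-80341126, minus strand), another ERK-induced Sprouty and a ligand of the ubiquitin ligase CBL, was abundant in MDA-MB-231 and was not called there. It read 30.2, 39.7 and 34.3 CPM with DMSO and 23.8, 30.6 and 32.6 CPM with ponatinib. The groups overlapped, the third ponatinib library lying above the first DMSO library. The log2 fold change was -0.26 (-0.55 to 0.03), with an adjusted p of 0.120 by edgeR. SPRY2 was lower in each of the 3 pairs of equally numbered libraries, and with the replicate number as a block the value was again -0.26 and the adjusted p 0.00558. It was also called with no filter on low counts (-0.29, adjusted p = 0.0385) and without DMSO replicate 1 (-0.36, adjusted p = 0.0402). In 4T1, Spry2 (ENSMUSG00000022114, chr14:106128766-106136446, minus strand) read 68.8, 58.2 and 59.1 CPM with DMSO and 35.5, 30.4 and 29.7 CPM with ponatinib. There the groups stood apart, with 51.4% of the DMSO level left. By the fit, the log2 fold change was -0.96 (-1.17 to -0.75, adjusted p = 1.21e-06, edgeR).

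SPRY1 (ENSG00000164056, chr4:123396795-123403760, plus strand), a Sprouty known for its part in kidney development and in the quiescence of muscle stem cells, was the only member that rose, and it rose in both lines. In MDA-MB-231 it was scarce: 29, 37 and 42 counts, or 1.92, 2.40 and 2.64 CPM, with DMSO and 57, 72 and 99 counts, or 3.60, 4.59 and 5.42 CPM, with ponatinib. The lowest ponatinib library lay above the highest DMSO library. The level was 1.95-fold higher, a log2 fold change of 0.97 (0.47 to 1.46, adjusted p = 0.00356, edgeR), and the low counts gave it a wider interval than any other member in that line but SPRED3. Spry1 (ENSMUSG00000037211, chr3:37693897-37698755, plus strand) stood in 4T1 at 24.3, 22.7 and 22.9 CPM with DMSO and 49.4, 43.5 and 45.8 CPM with ponatinib. The ponatinib libraries were all well above the DMSO libraries, 1.98-fold by the fit. This was a log2 fold change of 0.99 (0.79 to 1.18, adjusted p = 4.22e-07, edgeR).

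SPRED1 (ENSG00000166068, chr15:38252836-38357249, plus strand), whose loss causes Legius syndrome and which carries neurofibromin to RAS, responded in MDA-MB-231 alone by the test of each line. It read 30.8, 35.5 and 36.9 CPM with DMSO and 15.1, 13.4 and 16.0 CPM with ponatinib. The ponatinib libraries kept 43.2% of the DMSO level and none reached the lowest DMSO library. On the log2 scale the change was -1.21 (-1.46 to -0.97, adjusted p = 3.72e-06, edgeR). In 4T1, Spred1 (ENSMUSG00000027351, chr2:116951524-117018277, plus strand) read 40.6, 52.7 and 47.6 CPM with DMSO and 47.5, 45.4 and 45.5 CPM with ponatinib. The 3 ponatinib libraries lay inside the range of the DMSO libraries. The log2 fold change of -0.03 (-0.23 to 0.18, adjusted p = 0.840, edgeR) had an interval that leaves room for a fall of 0.23 or a rise of 0.18, and its sign turned to 0.09 when total counts replaced TMM scaling.

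SPRED2 (ENSG00000198369, chr2:65310851-65432637, minus strand, and in mouse ENSMUSG00000045671, chr11:19874355-19974442, plus strand), a broadly expressed SPRED, fell in both lines. In MDA-MB-231 it read 36.4, 40.9 and 40.1 CPM with DMSO and 21.9, 27.5 and 23.5 CPM with ponatinib. In 4T1, where it was the most abundant member, it read 134, 141 and 124 CPM with DMSO and 108, 87.6 and 83.4 CPM with ponatinib. The groups did not overlap in either line, although the first ponatinib library of 4T1 lay closer to the DMSO libraries than the other two. The log2 fold change was -0.69 (-0.92 to -0.46, adjusted p = 0.000191, edgeR) in MDA-MB-231 and -0.52 (-0.72 to -0.31, adjusted p = 0.000292) in 4T1.

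SPRED3 (ENSG00000188766, chr19:38388421-38399587, plus strand, and in mouse ENSMUSG00000037239, chr7:28857984-28869836, minus strand), the SPRED that lacks a working KIT-binding domain, had the steepest fall of the members in 4T1. Spred3 read 34.3, 30.3 and 29.5 CPM with DMSO and 12.8, 10.9 and 13.1 CPM with ponatinib there. The highest ponatinib library, at 13.1 CPM, lay well below the lowest DMSO library, at 29.5, and 39.2% of the DMSO level was left. On the log2 scale this was -1.35 (-1.60 to -1.11, adjusted p = 1.77e-07, edgeR), in place 359 of 13286. Spred3 shares exon sequence with Ggn on the opposite strand, and Ggn had 39 to 68 counts with DMSO and 19 to 53 with ponatinib (log2 fold change -0.65, adjusted p = 0.0921). In MDA-MB-231, SPRED3 had 37, 41 and 43 counts, or 2.45, 2.65 and 2.71 CPM, with DMSO and 18, 10 and 11 counts, or 1.14, 0.637 and 0.602 CPM, with ponatinib. The groups did not overlap, the first ponatinib library being the highest of its group. The fitted log2 fold change was -1.72 (-2.39 to -1.05, adjusted p = 0.000569, edgeR).

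Falls of more than 1 on the log2 scale were called for 3 members in MDA-MB-231 (SPRY4, SPRED1 and SPRED3) and 1 in 4T1 (Spred3), where 5.16% and 4.84% of all genes were called so.

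To ask whether the members responded unequally in the lines, the ponatinib response was compared between them in a joint fit over the 12488 genes that share a symbol and passed the filter. TMM scaling was redone over these genes, so the joint values need not equal the differences of the single-line log2 fold changes. The difference, 4T1 minus MDA-MB-231, was called for 3 of 6 members, against 41.9% of all genes compared. For SPRY4 it was 2.13 (1.78 to 2.48, adjusted p = 7.76e-09, edgeR), the deeper fall being in MDA-MB-231. SPRED1 differed by 1.11 (0.79 to 1.44, adjusted p = 1.02e-05), again with the deeper fall in MDA-MB-231. SPRY2 differed the other way, by -0.77 (-1.14 to -0.41, adjusted p = 0.00139), the deeper fall being in 4T1. The lines were not shown to differ for SPRY1 (-0.05, -0.49 to 0.39, adjusted p = 0.909), SPRED2 (0.10, -0.21 to 0.41, adjusted p = 0.634) or SPRED3 (0.30, -0.30 to 0.90, adjusted p = 0.441). These intervals leave room for differences of up to 0.49, 0.41 and 0.90 on the log2 scale. The lines also differ in species, annotation and sequence, which cannot be told apart from the line in this comparison.

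**Figure D2:**
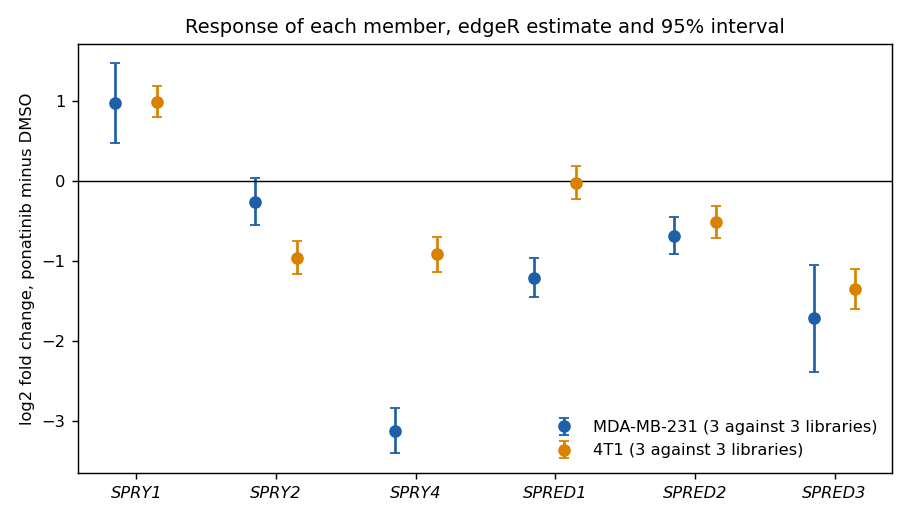
Log2 fold change of ponatinib over DMSO for each member, edgeR estimate with its 95% interval, in MDA-MB-231 (blue) and 4T1 (orange), 3 libraries against 3. The lines lie side by side for SPRY1 (0.97 and 0.99) and far apart for SPRY4 (-3.12 and -0.92) and SPRED1 (-1.21 and -0.03).

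Levels of different members were compared as CPM per kilobase of exon, since longer transcripts collect more reads. Exon lengths came from GENCODE, and the annotation the reads were counted on is not given, so these levels depend on the lengths chosen. Taking the longest transcript as the length moved SPRY1 with DMSO from 0.586 to 0.890 in the human line and Spred3 from 4.75 to 7.24 in the mouse line. In MDA-MB-231 with DMSO the order was SPRY2 at 10.8 ± 1.48, SPRY4 at 7.97 ± 0.316, SPRED2 at 7.11 ± 0.434, SPRED1 at 4.44 ± 0.411, SPRY1 at 0.586 ± 0.0922 and SPRED3 at 0.444 ± 0.0227 (mean ± SD, n = 3). No neighbours in this order overlapped between libraries. With ponatinib SPRY2 stayed first at 9.02 ± 1.44, followed by SPRED2 at 4.41 ± 0.521, SPRED1 at 1.91 ± 0.174, SPRY1 at 1.14 ± 0.231, SPRY4 at 0.920 ± 0.178 and SPRED3 at 0.135 ± 0.0509. SPRY4 thus went from the second to the fifth place, where its libraries overlapped with those of SPRY1.

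In 4T1 with DMSO, Spred2 led at 21.8 ± 1.43 CPM per kilobase, followed by Spry2 at 12.1 ± 1.15, Spred1 at 6.05 ± 0.785, Spry4 at 5.68 ± 0.144, Spry1 at 4.88 ± 0.187 and Spred3 at 4.75 ± 0.387. Spred1 overlapped with Spry4, and Spry1 with Spred3, and the order of the last 3 changes if the longest transcript is taken as the length. With ponatinib Spry1 moved to the second place at 9.69 ± 0.621, behind Spred2 at 15.3 ± 2.14 and ahead of Spry2 at 6.19 ± 0.610, Spred1 at 5.95 ± 0.154, Spry4 at 3.01 ± 0.306 and Spred3 at 1.86 ± 0.181. Spry2 and Spred1 then overlapped.

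Summed over the 6 members, the level per kilobase was 28.5 to 33.6 in the MDA-MB-231 libraries with DMSO and 15.5 to 18.7 with ponatinib. In 4T1 the sum was 52.7 to 56.6 with DMSO and 39.7 to 46.3 with ponatinib. The sums did not overlap between treatments in either line. SPRY4 made up 25.5% of the sum in MDA-MB-231 with DMSO and 5.35% with ponatinib, while SPRY2 went from 34.4% to 51.2%. Spry1 went from 8.85% to 23.1% of the sum in 4T1 and Spred3 from 8.60% to 4.45%.

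**Figure D3:**
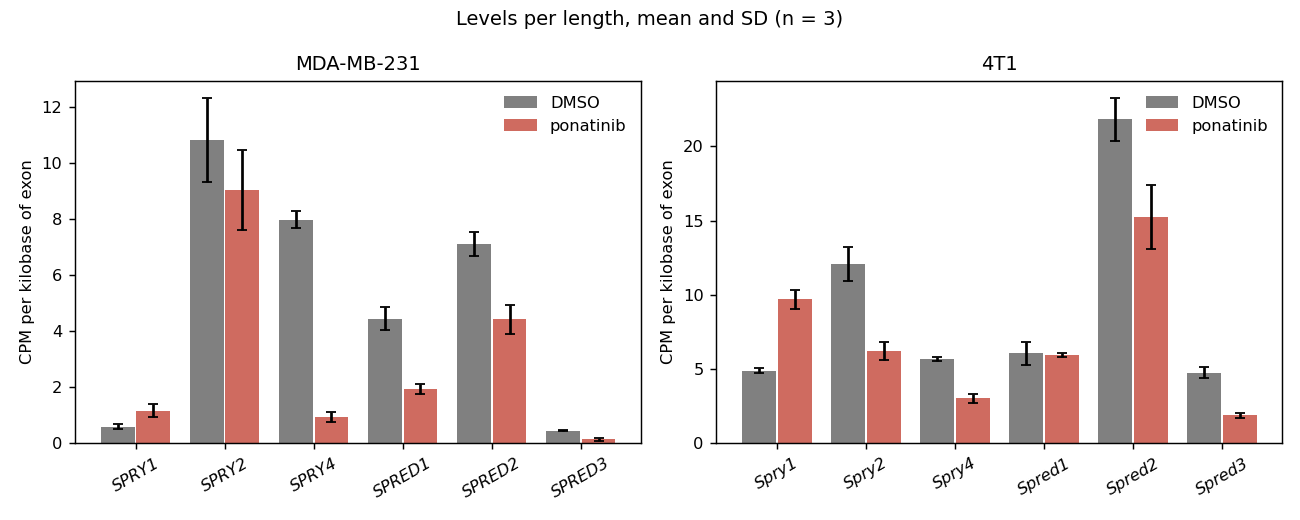
Mean CPM per kilobase of exon (linear axes from 0) with SD of 3 libraries for each member with DMSO (grey) and ponatinib (red), with MDA-MB-231 on the left and 4T1 on the right. SPRY2 led in MDA-MB-231 under both treatments (10.8 and 9.02) and Spred2 in 4T1 (21.8 and 15.3).

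Other transcripts that ERK signalling induces were taken as a list of 18 genes. Of the 17 tested in MDA-MB-231, 15 fell, 1 rose and 1 was not called, with a median log2 fold change of -1.57 beside 0.02 over all genes. Over all genes tested there, 26.8% were called lower and 27.2% higher. ETV4 and ETV5, ETS transcription factors, fell from 88.7 to 7.22 CPM (-3.62) and from 74.0 to 9.87 CPM (-2.91). FOSL1, a subunit of AP-1, fell from 857 to 130 CPM (-2.72), and DUSP5, a phosphatase that inactivates ERK in the nucleus, from 70.6 to 10.8 CPM (-2.72). SPRY4, at -3.12, lay between ETV4 and ETV5. FOS, named after its value was seen, was the gene that rose (2.38), and ERRFI1, an inhibitor of EGFR named likewise, was not called (0.01, adjusted p = 0.954).

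In 4T1, 13 of the 16 tested fell, 1 rose and 2 were not called, with a median of -0.93. The shares called over all genes there were 29.4% lower and 29.5% higher. Errfi1 fell most, from 591 to 129 CPM (-2.20), then Fosl1 (-1.62), Etv4 from 129 to 46.8 CPM (-1.46) and Ier3 from 307 to 119 CPM (-1.37). Epha4 rose (0.26, adjusted p = 0.0322), a call lost with DESeq2 and without DMSO replicate 3, ponatinib replicate 1 or ponatinib replicate 2, and Etv1 and Fos were not called, all 3 being named after their values were seen. Spry2, at -0.96, and Spry4, at -0.92, lay near this list's median.

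The kinases, adaptors and RAS proteins of the ERK cascade were called in shares near those of all genes in MDA-MB-231. Of 19 genes there, 4 fell, 6 rose and 9 were not called (median 0.01), beside 26.8% lower and 27.2% higher over all genes. With the replicate number as a block 9 fell, and without ponatinib replicate 3 only 3 rose. MAP2K1 fell (-0.82), as did the adaptor GRB2 (-0.63) and the phosphatase PTPN11 (-0.61), while MAPK3, which encodes ERK1, rose (0.79). In 4T1, 8 fell, 5 rose and 6 were not called (median -0.12), beside 29.4% and 29.5% of all genes, and with total counts 5 fell. Braf (-0.87) and Sos2 (-0.56) fell there, and Araf rose (0.62).

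Of 13 tested genes for proteins that bind Sprouty or SPRED, some of which are also in the cascade list, 6 fell and 3 rose in MDA-MB-231 (median -0.14), where 26.8% and 27.2% of all genes did. Leaving out DMSO replicate 2 or DMSO replicate 3 left 1 that rose. In 4T1, 9 fell and 2 rose (median -0.38), where 29.4% and 29.5% of all genes did. PPP2CA, the catalytic subunit of a phosphatase that acts on SPRY2, fell in MDA-MB-231 (-0.85). Caveolin-1, which binds Sprouty proteins at the membrane, rose there (CAV1, 0.60) and fell in 4T1 (Cav1, -1.12). Siah2, a ubiquitin ligase for Sprouty proteins, fell in 4T1 (-0.60). NF1, the partner of the SPRED proteins, fell in 4T1 (-0.69) and was not called in MDA-MB-231 (0.28, adjusted p = 0.0638).

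Of the receptors these inhibitors restrain, 7 of 12 were tested in MDA-MB-231. There MET (-0.64) and EGFR (-0.57) fell, FGFR3 (1.14) and PDGFRB (4.33) rose and 3 were not called (median -0.08). These shares were near the 26.8% and 27.2% of all genes, and with at least 10 counts required in every library 1 receptor rose. The receptors that rose were scarce, FGFR3 going from a mean of 2.53 to 5.57 CPM and PDGFRB from 0.451 to 9.24 CPM. In 4T1, 8 were tested, Kdr, Pdgfra and Pdgfrb fell, Fgfr2 rose and 4 were not called (median -0.25), beside 29.4% lower and 29.5% higher over all genes. The receptors that fell in 4T1 were scarce. Kdr went from a mean of 3.42 to 0.817 CPM, Pdgfra from 2.86 to 1.56 CPM and Pdgfrb from 0.724 to 0 CPM. Fgfr2 had at most 16 counts in a library, and no receptor was called higher with DESeq2 or with at least 10 counts required in every library. FGFR3, PDGFRB and the mouse receptors called were named after their values were seen.

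**Figure D4:**
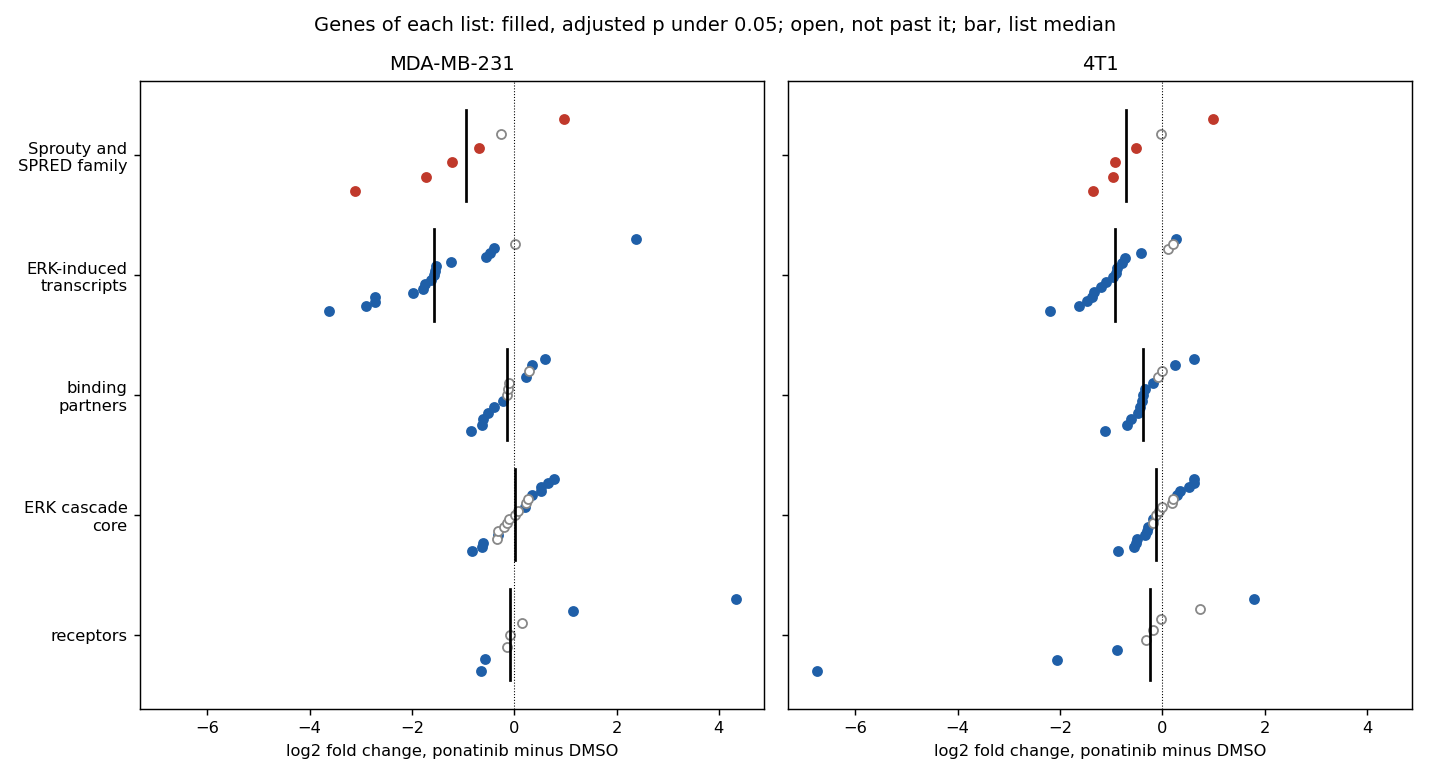
Log2 fold changes of ponatinib over DMSO for every tested gene of the family and of the 4 other lists, MDA-MB-231 on the left and 4T1 on the right; filled points had an adjusted p below 0.05, open points did not, and bars are list medians. The family (-0.95 and -0.72) and the ERK-induced list (-1.57 and -0.93) lie to the left of 0, and the cascade list (0.01 and -0.12) is centred near it. The leftmost receptor in 4T1, Pdgfrb, was at 0 CPM in all 3 ponatinib libraries, so the place of its point depends on the fit and is no measured fold.

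The genes whose pattern over the libraries was most like each member's were found by Pearson's r of log2 CPM centred within each line, over 12 libraries and 9838 genes. The libraries share the treatment contrast, so any gene with the same ratio of responses scores high. For SPRY4 they were HAS2, a hyaluronan synthase (r = 0.998, with log2 fold changes of -5.84 in the human and -2.0 in the mouse line), the cell cycle inhibitor CDKN1A (0.994, -2.67 and -0.81) and the urokinase receptor PLAUR (0.993, -2.45 and -0.83). All 3 had the lower value in MDA-MB-231, as SPRY4 did. For SPRED1 they were ARHGAP18 (0.981), HASPIN (0.977) and TNFAIP3 (0.977), whose log2 fold changes ran from -1.54 to -1.18 in the human line and from -0.13 to -0.10 in the mouse line. For SPRY2 they were TES (0.979), ANXA5 (0.975) and CLOCK (0.974), whose values were lower in 4T1. For SPRY1 they were HSD17B4, CNTNAP1 and ZFP28 (0.985 each), for SPRED2 CNST (0.983), LANCL3 (0.981) and SLC7A1 (0.981), and for SPRED3 EIF4A3 (0.983), EIF2B3 (0.977) and SLC25A33 (0.974).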

How the data were processed

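RNA was taken up in TRIzol and made into libraries by the NEBNext Ultra protocol. The authors aligned reads with HISAT2 and counted them per gene with HTSeq, and the deposited files hold raw counts, 1 file per library. Versions, the annotation counted on and the strand setting are not given in the sources used here. Symbols and coordinates were taken from GENCODE v44 (hg38) and vM39 (GRCm39), which matched 81.9% of human and 91.1% of mouse identifiers (99.3% and 99.8% of counts).

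Each line was fitted separately over all genes with edgeR 4.0.16 in R 4.3.3 (filterByExpr, TMM scaling, quasi-likelihood test, Benjamini-Hochberg adjustment), without a block. The difference between the lines was an interaction term over same-symbol genes. Scripts were tested on simulated data. The common dispersion corresponded to a biological coefficient of variation of 0.0990 for the human and 0.0869 for the mouse line. Depth sets the precision: members with fewer than 100 counts per library have the widest intervals. Whether the intervals cover differences between cultures is not known, as the labels do not tell. The labels number replicates 1 to 3 in each group. Deviations of equally numbered libraries correlated at 0.111 to 0.345 (human line) and 0.115 to 0.213 (mouse line), all above 0.1, and those of unequally numbered libraries at -0.260 to 0.163 and -0.213 to 0.119, so some unequal pairs reached the level of equal ones. By a chi-square per gene between libraries, replicate 1 was further from replicates 2 and 3 than these were from each other in all 4 groups. With the block, genes called lower and higher went from 3918 and 3975 to 4873 and 4802 in MDA-MB-231. In 4T1 they went from 3909 and 3925 to 4310 and 4310. The labels do not say whether equal numbers mark a shared batch. The results given are unblocked, and for the members the blocked fit is given where it changes a call.

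The alternatives were DESeq2 1.42.0, its size factors, total counts, other filters, the block, leaving out each library, and transcript length. The text names all members, genes overlapping them, up to 4 genes of each list per line (largest called change, mean of at least 10 CPM) and the 3 genes most like each member. A gene that this rule names is not reported here. The members and lists were chosen with earlier results of these data known.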

Additional observations from a re-analysis of the deposited data

Results flagged for a closer look

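Ponatinib responses differed between the lines for 3 of 6 members by a test of the difference itself. Over all genes compared, 41.9% were called so, a share near that of the members. The difference was taken as 4T1 minus MDA-MB-231 on the log2 scale with edgeR's quasi-likelihood test. SPRY4 differed by 2.13 (adjusted p = 7.76e-09), and it kept 11.5% of its DMSO level in MDA-MB-231 and 52.9% in 4T1. SPRED1 differed by 1.11 (adjusted p = 1.02e-05), with a fall called in MDA-MB-231 and none in 4T1. SPRY2 differed by -0.77 (adjusted p = 0.00139), with a fall called in 4T1 and none in MDA-MB-231 in the unblocked fit. All 3 differences kept their direction and their call in each of the 18 alternatives, with ranges of 2.01 to 2.29 for SPRY4, 1.05 to 1.27 for SPRED1 and -0.89 to -0.63 for SPRY2.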

How the results depend on the processing

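Of 252 values for the members under the alternatives (12 settings per line and 18 for the difference between lines), 241 kept their direction and their side of the threshold. SPRY2 in MDA-MB-231 was called lower with no filter (-0.29; adjusted p = 0.0385) and with the replicate block (-0.26; 0.00558). Leaving out 1 library gave it values from -0.36 to -0.14, and it was called without DMSO replicate 1 (-0.36; 0.0402). The range of its adjusted p over all alternatives was 0.00558 to 0.397. The replicate block changed no other member's call. Spred1 in 4T1 turned to 0.090 with total counts and to 0.067 without DMSO replicate 2, lay between -0.12 and 0.067 when 1 library was left out, and it was called under no setting. The difference between lines for SPRY1 was 0.046 with total counts and -0.19 to 0.10 when 1 library was left out, and it was called under no setting.

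Total counts in place of TMM moved the all-gene median to 0.11 for the human and 0.12 for the mouse line, and the share of calls that were higher from 50.4% to 60.0% and from 50.1% to 62.3%. Counts of all genes called stayed within 1.5 times in every setting. With the longest transcript as the length, DMSO levels in CPM per kilobase were 0.890 for SPRY1, 12.8 for SPRY2, 9.77 for SPRY4, 8.66 for SPRED2 and 0.533 for SPRED3 in MDA-MB-231, and 6.57 for Spry1, 15.9 for Spry2, 6.27 for Spry4, 7.38 for Spred1, 27.2 for Spred2 and 7.24 for Spred3 in 4T1. Depth limits SPRY1 and SPRED3 in MDA-MB-231, which had 10 to 99 counts per library. Counts over the other lists that moved by more than 1.5 times are given beside each list, apart from these. The 1 ERK-induced transcript called higher in MDA-MB-231 became 2 with no filter, and the 1 receptor called higher in 4T1 became 2 with no filter.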

Other observations

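SPRY3, the remaining Sprouty gene, had at most 13 counts in any MDA-MB-231 library and was not tested there. Of the counted genes that overlap a member, those besides SPRY4-AS1 and Ggn were nearly empty: Mir674, within Spred1, and Gm42922, at Spry1, had at most 3 counts in a 4T1 library, and a non-coding gene within SPRED2 (ENSG00000232693) had at most 1 in an MDA-MB-231 library.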
